A study of Homo sapiens with 4 samples.

Results

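The 10 tubulin genes described here are TUBA1A, TUBA1B, TUBA1C, TUBB, TUBB2A, TUBB2B, TUBB3, TUBB4B, TUBB6 and TUBG1, taken by symbol from the 60651 gene rows of the count table. They were measured by single-cell RNA sequencing of CHP134, an established and MYCN-amplified human cell line, which per the labels came from a neuroblastoma of the left adrenal gland. Cells were treated for 24 h with 13cRA (13-cis-retinoic acid, a retinoid used in neuroblastoma therapy) at 5 µM, with doxazosin (a blocker of alpha-1 adrenergic receptors) at 10 µM, with both drugs at those doses (the combination), or with the solvent DMSO at 0.04%. Each treatment was 1 sample of the same line, so the differences below have no replicate check and no p-value was computed. The members were grouped by textbook expression into 4 neuronal genes (TUBA1A, TUBB2A, TUBB2B and TUBB3), 5 general genes (TUBA1B, TUBA1C, TUBB, TUBB4B and TUBB6) and the nucleating gene TUBG1.

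Microtubules are polymers of alpha-tubulin and beta-tubulin dimers, and gamma-tubulin sits in the ring complex that starts new ones. Vertebrates carry several genes for each subunit, called isotypes, whose proteins differ mostly in their acidic tails. Developing neurons are known for much TUBA1A, TUBB2B and TUBB3, whereas dividing cells of most tissues rely on TUBA1B, TUBA1C, TUBB and TUBB4B. Microtubules form both the mitotic spindle and the core of the neurite, which is why isotype use is of interest in a neuroblast treated with a retinoid.

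Isotype genes are close copies of each other, and this limits how well reads can be assigned. The last 60 coding bases of the closest beta pair, which encode the acidic tail, show the problem, and capitals mark the bases that differ. They were read from GENCODE 29 transcripts on GRCh38, on the minus strand, for TUBB2A at chr6:3153863-3153922 and for TUBB2B at chr6:3224751-3224810.
TUBB2A: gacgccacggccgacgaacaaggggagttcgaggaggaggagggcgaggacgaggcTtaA
TUBB2B: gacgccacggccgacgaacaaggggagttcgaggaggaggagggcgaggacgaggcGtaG
The pair differed at 2 of these bases, and 98.1% of its 1338 coding positions matched. For TUBA1A and TUBA1B, 97.2% of 1356 coding positions matched.

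Reads of 75 bases from a transcript can therefore match more than 1 gene. Of all such windows, 27.1% of TUBA1A and 48.4% of TUBA1B also occurred in another annotated gene, as did 17.0% of TUBA1C, 60.4% of TUBB2A and 49.5% of TUBB2B. The share was 8.44% for TUBB, 5.37% for TUBB4B, 20.4% for TUBG1 and 0% for TUBB6. How the authors' counting treated reads shared between genes is not given in the sources used here, so the levels of the close pairs are uncertain. TUBB3 is a special case: 89.5% of its transcript lies in exons of the readthrough gene AC092143.1 on the same strand, which had 0 counts in all cells. The TUBB3 values below can therefore not be read as that isotype's level.

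After filtering, 318 cells were kept for 13cRA, 239 for doxazosin, 287 for the combination and 353 for DMSO. The median depth per cell was 59200 counts for 13cRA, which was the lowest, 171793 for doxazosin, 221558 for the combination and 122615 for DMSO. When every cell was thinned to 34000 counts, the median number of detected genes was 3895 in 13cRA cells, 4771 in doxazosin cells, 4705 in combination cells and 4679.5 in DMSO cells. GAPDH, a glycolytic enzyme, had 1419 CPM (counts scaled to a total of 1000000 per library) in 13cRA cells, 3763 in doxazosin cells, 2959 in combination cells and 3482 in DMSO cells. Mitochondrially encoded genes took 13.7% of counts after 13cRA, 11.2% after doxazosin, 10.3% after the combination and 10.8% with DMSO. MYCN, an oncogene, had 1168 CPM after 13cRA, 759 after doxazosin, 815 after the combination and 760 with DMSO. The 13cRA library thus stood apart in depth, detected genes, GAPDH, mitochondrial share and MYCN, and the part of these in the tubulin differences was not tested. Of 12 noradrenergic neuroblast markers, 9 to 10 exceeded 5 CPM in each library, while TH and DBH, enzymes of catecholamine synthesis, did not exceed 0.177 CPM in any. The summed level of 5 endothelial markers was 22.8 CPM after 13cRA, 1.69 CPM after doxazosin, 13.0 CPM after the combination and 1.31 CPM with DMSO, and CLDN5 made up 19.7 CPM of the 13cRA sum. The sum of 5 Schwann cell markers was 9.72 CPM after 13cRA, 1.30 after doxazosin, 2.80 after the combination and 0.664 with DMSO, and SOX10 and S100B did not exceed 0.152 CPM in any. The sum of 6 fibroblast markers was 24.0 CPM after 13cRA, 11.6 after doxazosin, 8.60 after the combination and 12.7 with DMSO. The leukocyte and epithelial sums did not exceed 2.16 CPM. The part of these markers in the tubulin differences was not tested. No cell columns were identical to one another (0 found).

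The alpha-tubulin genes differed in what 13cRA cells showed: TUBA1B and TUBA1C were lower than in DMSO cells, and TUBA1A was not. TUBA1A (chr12:49184796-49189324, minus strand, GRCh38, 4 exons), the main alpha-tubulin of migrating and growing neurons, had 3332 CPM in 13cRA cells, 3678 in doxazosin cells, 4487 in combination cells and 2913 in DMSO cells. In CPM all 3 treated libraries lay above DMSO, with the combination highest. The log2 difference from DMSO, computed on CPM plus 1, was 0.19 for 13cRA, 0.34 for doxazosin and 0.62 for the combination. The direction for 13cRA depended on scaling, since TMM factors turned it to −0.14 while the median of all genes moved to −0.34. The gene stayed above that median.

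TUBA1B (chr12:49127782-49131397, minus strand, 4 exons), a broadly expressed alpha-tubulin, had 288 CPM (95% Poisson interval 281 to 295) in 13cRA cells, 993 (984 to 1002) in doxazosin cells, 795 (789 to 802) in combination cells and 997 (988 to 1006) in DMSO cells. The 13cRA library was 3.46-fold lower than DMSO (log2 difference −1.79), whereas doxazosin was level with DMSO (−0.01) and the combination lay between (−0.33). The counts come from amplified reads without molecular identifiers, so these intervals cover counting error only. In cells matched for detected genes (4000 to 4600 after thinning; 92 cells of 13cRA and 105 of DMSO), a setting chosen after seeing the data, the 13cRA difference of TUBA1B was −1.05. In GENCODE 29, 72.6% of its transcript lies opposite the antisense gene AC011603.2, and whether the counting used strand is not given in the sources used here.

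TUBA1C (chr12:49188736-49274603, plus strand, 4 exons), another broadly expressed alpha-tubulin, had 102 CPM in 13cRA cells, 197 in doxazosin cells, 178 in combination cells and 217 in DMSO cells. It was 2.13-fold lower after 13cRA than with DMSO (log2 difference −1.09), and the difference was −0.14 for doxazosin and −0.29 for the combination. In the cells matched for detected genes the 13cRA difference was −0.58, just short of 1.5-fold.

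TUBG1 (chr17:42609676-42615234, plus strand, 11 exons), the gamma-tubulin of the nucleating ring, behaved like the general alpha genes. Its level was 240 CPM in 13cRA cells, 512 in doxazosin cells, 418 in combination cells and 537 in DMSO cells. The 13cRA library was 2.23-fold lower than DMSO (log2 difference −1.16), against −0.07 for doxazosin and −0.36 for the combination. In the cells matched for detected genes the 13cRA difference was −0.51, so the 1.5-fold mark was not reached.

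**Figure D1:**
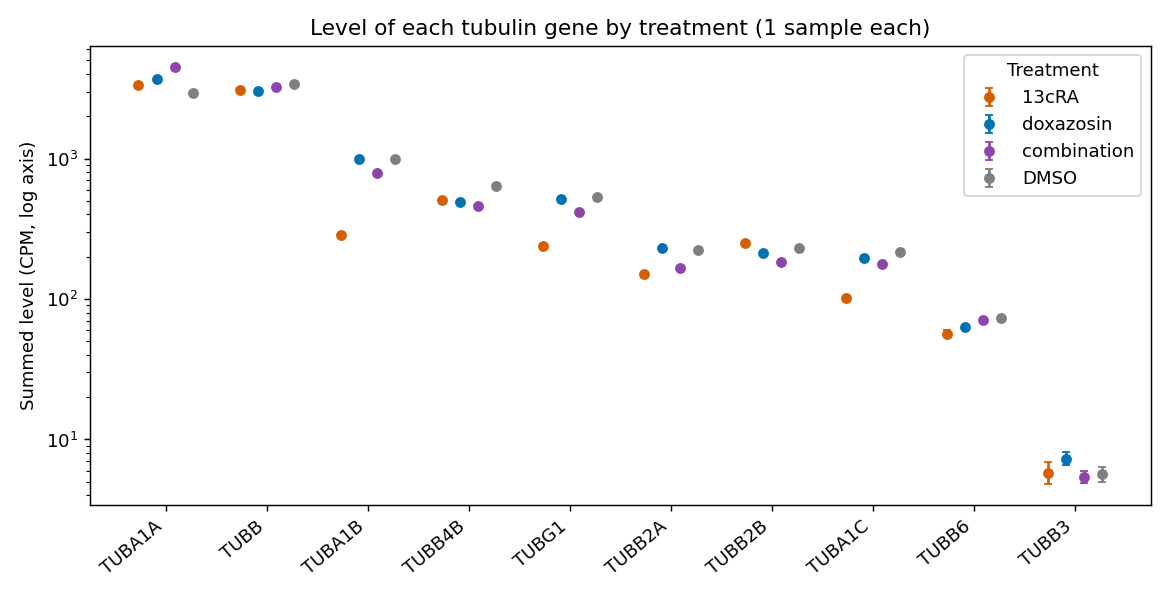
Summed level of each tubulin gene (CPM, log axis) in the 4 treatments, 1 sample each, in the order of the level per length in DMSO cells; bars are 95% Poisson intervals and are often smaller than the points. TUBA1B, TUBA1C and TUBG1 have their lowest point in 13cRA, at 288, 102 and 240 CPM, while TUBA1A is at 2913 CPM or more and TUBB at 3016 CPM or more throughout.

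In summed CPM of all kept cells, no beta-tubulin gene passed 1.5-fold against DMSO. With TMM or DESeq2 factors, TUBB4B, TUBB6 and TUBB2A were past it on the lower side after 13cRA. TUBB (chr6:30720201-30725426, plus strand), the main beta-tubulin of dividing cells, had 3099 CPM in 13cRA cells, 3016 in doxazosin cells, 3237 in combination cells and 3420 in DMSO cells. Its log2 difference from DMSO was −0.14 for 13cRA, −0.18 for doxazosin and −0.08 for the combination. TUBB4B (chr9:137241213-137243707, plus strand), a beta-tubulin also used in cilia, had 504 CPM in 13cRA cells, 489 in doxazosin cells, 462 in combination cells and 635 in DMSO cells. All 3 treated libraries lay below DMSO, with log2 differences of −0.33 for 13cRA, −0.37 for doxazosin and −0.46 for the combination. TUBB6 (chr18:12307669-12344320, plus strand), a low and broadly expressed beta-tubulin, had 56.7 CPM in 13cRA cells, 63.2 in doxazosin cells, 71.1 in combination cells and 73.6 in DMSO cells. Its doxazosin difference was −0.22, and −0.67 in cells of 34000 to 120000 counts.

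Among the neuronal beta genes, TUBB2B was near TUBA1A in its 13cRA difference (0.13 against 0.19) but not in that of the combination (−0.32 against 0.62). TUBB2A was lower than DMSO in both. TUBB2A (chr6:3153669-3157526, minus strand), abundant in neurons, had 150 CPM in 13cRA cells, 229 in doxazosin cells, 165 in combination cells and 224 in DMSO cells. Its 13cRA difference was −0.58, a 1.49-fold lower level that lay just inside the 1.5-fold mark, and the combination difference was −0.44, or −0.96 in cells of 34000 to 120000 counts. The 13cRA difference passed the mark by the mean of per-cell CPM and under each other choice of cells. Both libraries that received 13cRA were low. TUBB2B (chr6:3224261-3231730, minus strand), required for neuronal migration, had 250 CPM in 13cRA cells, 213 in doxazosin cells, 184 in combination cells and 229 in DMSO cells. The near-identical pair thus went in opposite directions after 13cRA, −0.58 for TUBB2A and 0.13 for TUBB2B, although TMM factors turned the TUBB2B value to −0.21. TUBB3 (chr16:89921392-89938761, plus strand), the class III isotype used as a neuronal marker, had 5.79 CPM (4.84 to 6.87) in 13cRA cells, 7.30 (6.54 to 8.12) in doxazosin cells, 5.40 (4.88 to 5.97) in combination cells and 5.65 (5.00 to 6.36) in DMSO cells. In the cells matched for detected genes its difference from DMSO was −1.28 for 13cRA, 0.70 for doxazosin and 0.60 for the combination, past the mark in each. Those cells numbered 92 for 13cRA, 38 for doxazosin, 79 for the combination and 105 for DMSO, so these values rest on few counts. In cells of 34000 to 120000 counts the 13cRA difference was 0.54, of the opposite sign. Only the doxazosin interval over all kept cells lay apart from that of DMSO, and such intervals cover counting error only. The readthrough overlap applies to every one of these TUBB3 values.

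Read against the 1.5-fold mark, 3 of 10 members (TUBA1B, TUBA1C and TUBG1) were lower in 13cRA cells than in DMSO cells and 0 were higher. Of the 10222 genes with at least 5 CPM in either library, 13.5% were lower and 17.1% higher past that mark, 30.6% in all, so the members' share of 3 of 10 was near the background. All 3 were also lower past 2-fold, as were 3.74% of all genes. For doxazosin against DMSO, 0 of 10 members passed in either direction, beside 8.77% of all genes (4.2% higher and 4.57% lower). For the combination against DMSO, TUBA1A passed on the higher side and 0 on the lower, beside 8.5% and 8.46% of all genes, 17% together. TUBA1A lay close to the mark, at 1.54-fold, and was below it with DESeq2 factors, with the mean of per-cell CPM and with thinned cells. In cells of 34000 to 120000 counts, of which the combination had 38 and DMSO 141, TUBA1A was at 0.20 and TUBB2A, at −0.96, was the member past the mark. The median log2 difference over the members was −0.35 for 13cRA, −0.09 for doxazosin and −0.30 for the combination, beside 0.00, −0.02 and −0.02 over all genes. Member transcripts are 1595 to 3001 bases long. For 13cRA the median was −0.24 over genes of 1500 to 2000 bases, −0.19 at 2000 to 3000 and 0.13 above 5000. Over genes with more than 57% GC it was −0.18 for doxazosin and −0.17 for the combination. The part of length and GC in the member differences was not tested.

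**Figure D2:**
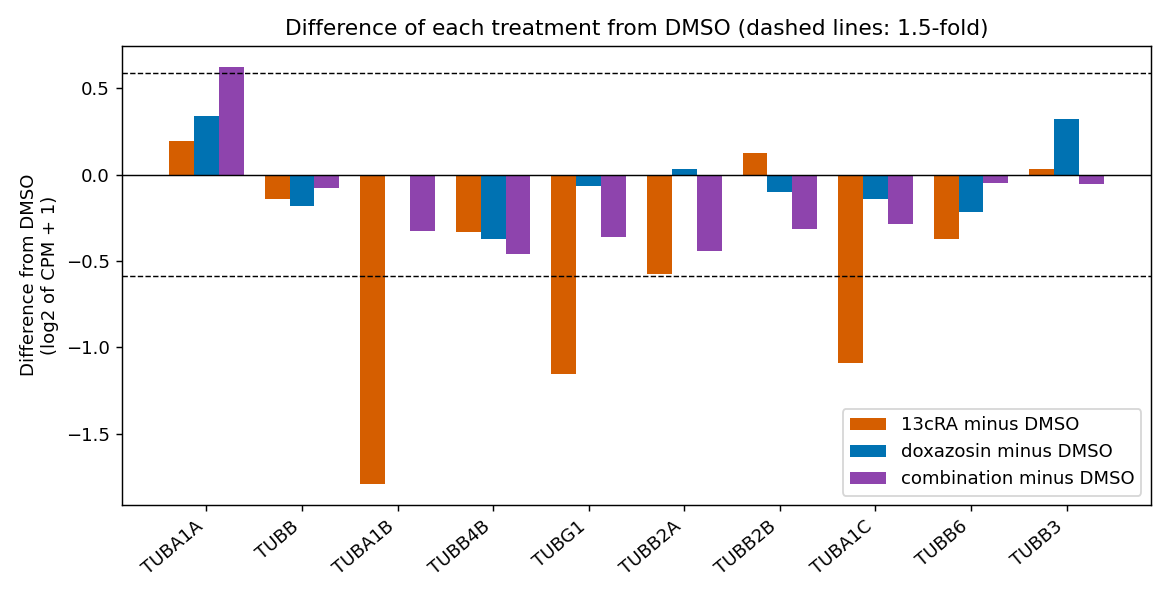
Log2 difference of each treatment from DMSO (CPM plus 1) for the 10 members, with dashed lines at 1.5-fold. TUBA1B at −1.79, TUBG1 at −1.16 and TUBA1C at −1.09 cross the lower line after 13cRA, and TUBA1A at 0.62 crosses the upper line after the combination.

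The combination held more of the general alpha genes and TUBG1 than 13cRA alone. Against 13cRA, TUBA1B was 2.76-fold higher (log2 difference 1.46), TUBA1C 1.74-fold higher (0.80) and TUBG1 1.74-fold higher (0.80), so 3 of 10 members passed on the higher side, beside 13.2% of all genes. On the lower side 0 members passed, beside 16.9% of all genes, and 30.1% of all genes passed in either direction. In the cells matched for detected genes, the difference was 0.78 for TUBA1B, and 0.40 for TUBA1C and 0.08 for TUBG1 fell short of the mark. There TUBA1A at 0.65, TUBB2A at 0.64 and TUBB3 at 1.88 were past it as well, beside 33.3% of all genes in either direction. Against doxazosin, 0 of 10 members passed, beside 17.1% of all genes (9.5% higher and 7.58% lower), and TUBA1B was 0.32 lower on the log2 scale, at 795 CPM in combination cells and 993 CPM in doxazosin cells.

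The departure from additivity is the combination's log2 level minus those of both single drugs plus that of DMSO. It was 1.47 for TUBA1B, 0.94 for TUBA1C and 0.86 for TUBG1, which were the only members past 1.5-fold, 3 of 10 above and 0 below, beside 14.1% and 16.4% of all genes, 30.6% together. In each of them the combination was higher than the sum of the single-drug differences would place it. In the cells matched for detected genes it was 0.83 for TUBA1B, 0.59 for TUBA1C and 0.36 for TUBG1, which was then short of the mark. In those cells TUBB3 at 1.18 and TUBB2A at 0.87 passed it, so which members passed changed with the cells used. TUBB6 followed at 0.54, and TUBA1A, at 0.09, was close to additive. The same DMSO and 13cRA libraries enter these values and those above.

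Division by transcript length allows levels of different genes to be set side by side, but it does not correct for shared or antisense bases. Windows also found in another gene made up 48.4% for TUBA1B and 27.1% for TUBA1A. Antisense genes covered 72.6% of the TUBA1B transcript, 22.2% of TUBA1C, 20.1% of TUBB and 13.0% of TUBA1A. The part of these in the order below was not tested. On that scale TUBA1A was highest in every library, at 1740 CPM per kilobase in 13cRA cells, 1920 in doxazosin cells, 2343 in combination cells and 1521 in DMSO cells. TUBB came next in every library, at 1161 CPM per kilobase in 13cRA cells, 1130 in doxazosin cells, 1212 in combination cells and 1281 in DMSO cells. TUBA1B followed in doxazosin, combination and DMSO cells, but in 13cRA cells TUBB4B, at 308 CPM per kilobase, stood above it at 177. TUBA1C, TUBB6 and TUBB3 held the last places in all 4 libraries, with TUBB3 between 3.05 and 4.13 CPM per kilobase. TUBA1A among the alpha members and TUBB among the beta members other than TUBB3, whose level is open to the overlap above, were thus highest in all 4 libraries.

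The makeup of the alpha-tubulin counts shifted towards TUBA1A in each treated library. Its share of the counts per length of the 3 alpha members was 89.2% in 13cRA cells, 74.0% in doxazosin cells, 81.0% in combination cells and 68.9% in DMSO cells. TUBA1B made up 9.07% in 13cRA cells, 23.5% in doxazosin cells, 16.9% in combination cells and 27.8% in DMSO cells. A share within a library does not depend on how libraries are scaled. Such a share does depend on how shared and antisense reads were counted, which is not given in the sources used here. The 13cRA share was 20.3 percentage points above that of DMSO, and 12.2 points above it in the cells matched for detected genes. The neuronal share of the beta counts showed no such shift, at 12.9% in 13cRA cells, 14.8% in doxazosin cells, 11.4% in combination cells and 13.1% in DMSO cells. TUBB3, with its readthrough overlap, added at most 0.241%, so the share is nearly all TUBB2A and TUBB2B. In that close pair, whose levels are uncertain, TUBB2A had 5.48% in 13cRA and 7.16% in DMSO cells. TUBB2B had 7.21% in 13cRA and 5.78% in DMSO cells. TUBB made up 67.6% of the beta counts per length in 13cRA cells, 66.0% in doxazosin cells, 70.2% in combination cells and 65.3% in DMSO cells. In total, the alpha members had 3722 CPM after 13cRA, 4867 after doxazosin, 5460 after the combination and 4128 with DMSO. The beta members had 4065 CPM after 13cRA, 4019 after doxazosin, 4124 after the combination and 4588 with DMSO.

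**Figure D3:**
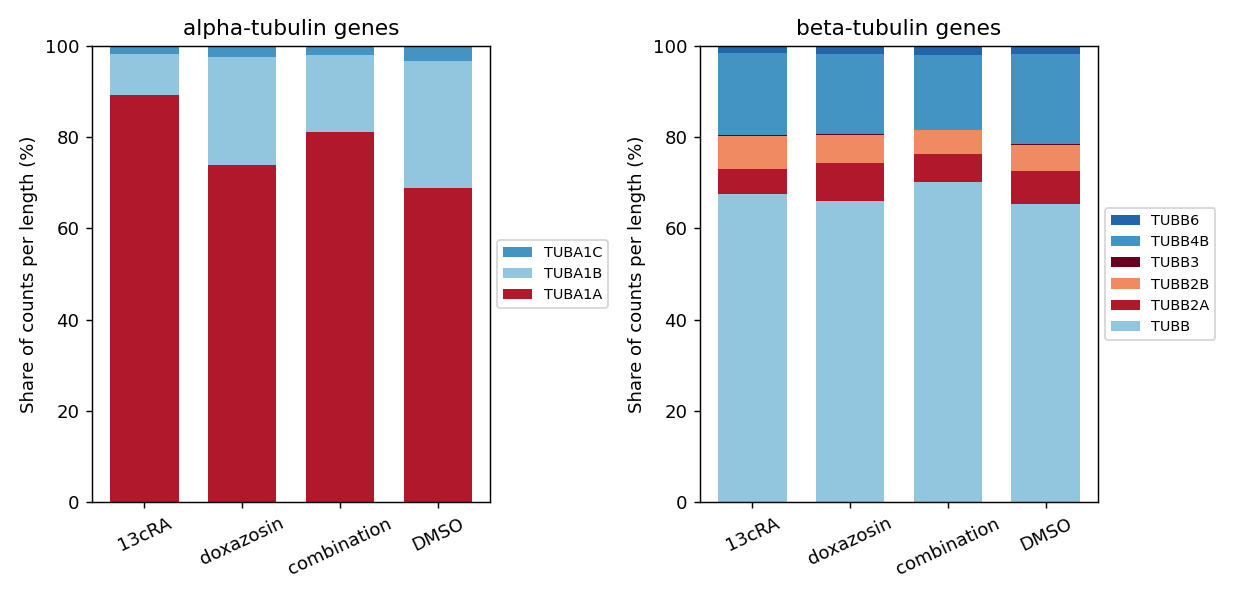
Share of each isotype in the counts per transcript length of the alpha members (left) and beta members (right), by treatment; reds are neuronal and blues general genes. TUBA1A takes 89.2% of the alpha bar in 13cRA and 68.9% in DMSO. The neuronal beta genes, nearly all TUBB2A and TUBB2B, stay between 11.4% and 14.8% in sum.

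The alpha shift was seen across most cells of the 13cRA library rather than in a few. The median share of TUBA1A among a cell's alpha counts, not divided by length, was 88.6% in 248 thinned cells of 13cRA, 72.7% in 235 of doxazosin, 79.3% in 270 of the combination and 68.2% in 328 of DMSO. Of the cells, 93.5% (exact 95% binomial interval 89.7 to 96.3%) in 13cRA, 65.1% (58.6 to 71.2%) in doxazosin and 79.3% (73.9 to 83.9%) in the combination lay above the DMSO median. Cells of 1 sample are not replicates, and the intervals cover only the sampling of cells. At equal depth a cell had a median of 9 TUBA1B counts in 13cRA, 34 in doxazosin, 28 in the combination and 30.5 in DMSO. The median for TUBA1A was 99 counts in 13cRA, 110 in doxazosin, 127.5 in the combination and 85 in DMSO.

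**Figure D4:**
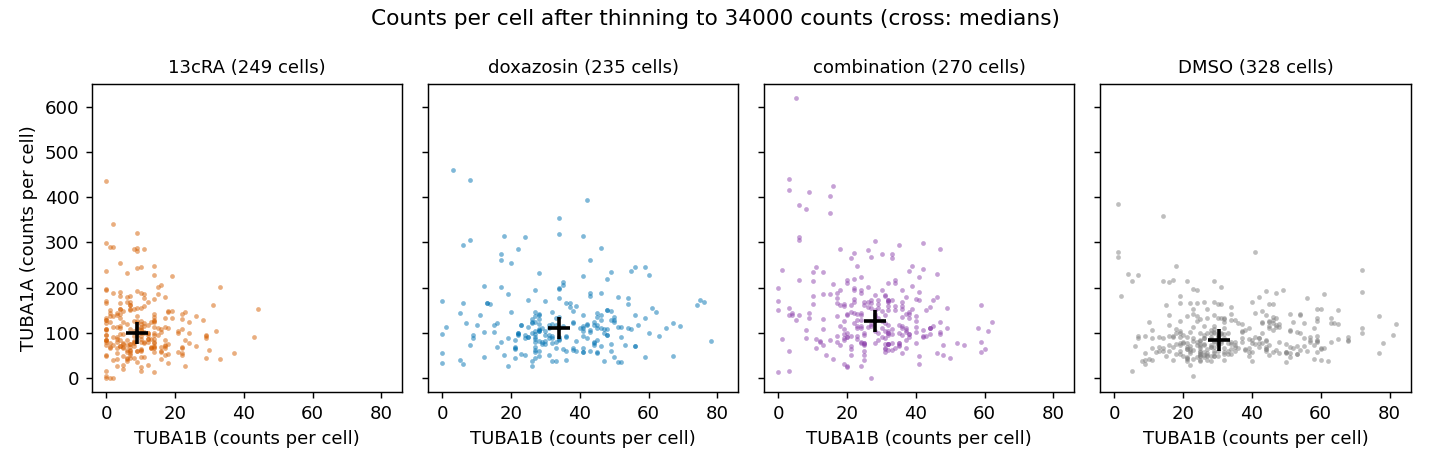
TUBA1A against TUBA1B counts per cell after thinning each cell to 34000 counts, 1 point per cell and a cross at the medians. The 13cRA cells gather near the left edge, with a median of 9 TUBA1B counts against 30.5 in DMSO cells, without a lower median of TUBA1A (99 against 85).

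TUBA1A and TUBB were detected in nearly every cell, and the less abundant members in fewer cells after 13cRA. With each cell thinned to 34000 counts, TUBA1B was detected in 89.6% (85.1 to 93.1%) of 13cRA cells, 98.3% of doxazosin cells, 98.5% of combination cells and 100% (98.9 to 100%) of DMSO cells. TUBA1C was detected in 61.0% (54.7 to 67.1%) of 13cRA cells, 92.3% of doxazosin cells, 92.2% of combination cells and 92.4% (89.0 to 95.01%) of DMSO cells. For TUBA1C the doxazosin and combination intervals overlapped that of DMSO. TUBB6 was detected in 41.4% (35.2 to 47.8%) of 13cRA cells, 63.8% of doxazosin cells, 60.7% of combination cells and 64.9% (59.5 to 70.1%) of DMSO cells. TUBB2A was detected in 78.3% of 13cRA cells, 93.6% of doxazosin cells, 88.9% (84.5 to 92.4%) of combination cells and 97.0% (94.5 to 98.5%) of DMSO cells. In all, 7 of 10 members had 13cRA and DMSO intervals that did not overlap, the 13cRA share being the lower in each and 0 the higher, beside 40% of the 10222 measured genes lower and 1.86% higher by the same rule. They were TUBA1B, TUBA1C, TUBB2A, TUBB2B, TUBB4B, TUBB6 and TUBG1. For TUBB2B and TUBB4B the unthinned shares did not separate, at 93.7% and 95.3% in 13cRA cells and 97.7% and 98.0% in DMSO cells. Nor did the summed CPM of either differ by 1.5-fold from DMSO after 13cRA. With cells thinned to 20000 or 60000 counts, the TUBB2B intervals of 13cRA and DMSO overlapped, so TUBB2B separated only at 34000. The TUBB4B intervals lay apart at both of those depths. The lower number of detected genes in 13cRA cells at equal depth applies to all of these shares. TUBB3 was detected in 7.23% (4.34 to 11.2%) of 13cRA cells, 17.0% (12.4 to 22.4%) of doxazosin cells, 13.0% (9.20 to 17.6%) of combination cells and 11.9% (8.59 to 15.9%) of DMSO cells, and each treated interval overlapped that of DMSO. Without thinning, at unequal depth, its share was 8.81% (5.93 to 12.5%) in 13cRA cells and 27.8% (23.2 to 32.7%) in DMSO cells.

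Within each library TUBB4B, TUBA1C, TUBA1B and TUBG1 correlated positively with a mitotic score, the mean log level of 53 genes of the G2 and M phases that holds no tubulin. The mean of the 4 within-library Spearman correlations across cells was 0.48 for TUBB4B, 0.36 for TUBA1C, 0.36 for TUBA1B and 0.32 for TUBG1. TUBB6 at 0.20 and TUBB at 0.19 lay within the range of most genes given next, with TUBB at 0.07 in 13cRA cells, and the neuronal genes were at −0.02 for TUBB2A, −0.07 for TUBB3, −0.09 for TUBB2B and −0.27 for TUBA1A. For 2493 well-detected genes the median was 0.08, with the 5th and 95th percentiles at −0.12 and 0.24. TUBA1A was negative in all 4 libraries, from −0.38 in combination cells to −0.15 in DMSO cells. The points are cells of 1 library thinned to 34000 counts, which share its amplification, and the correlations are given as a description.

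**Figure D5:**
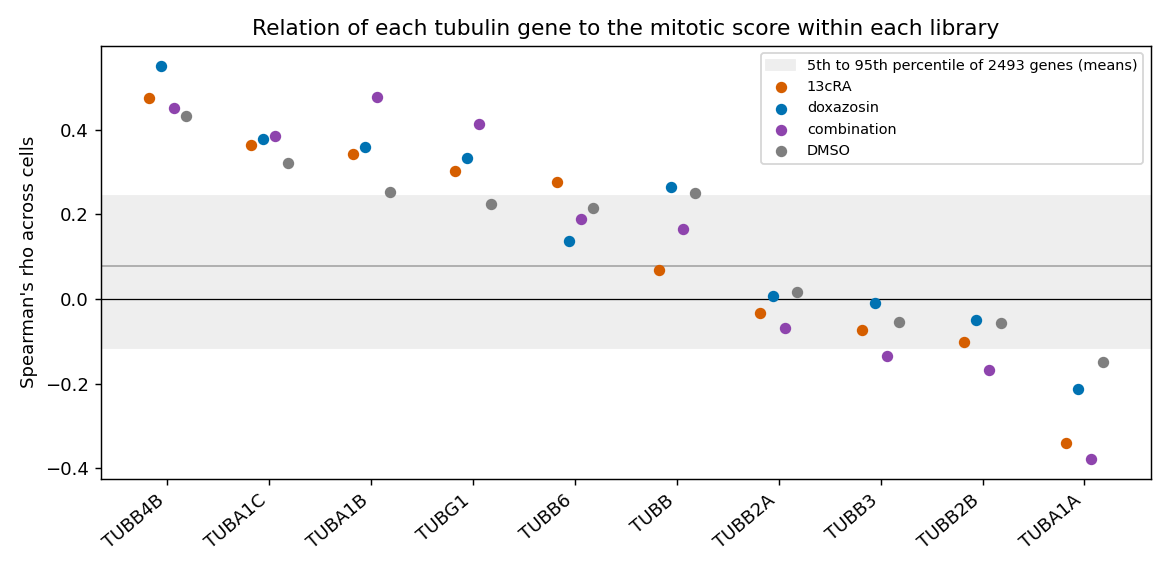
Spearman correlation across thinned cells between each member and the mitotic score, 1 point per library; the grey band spans the 5th to 95th percentile of the mean correlation of 2493 genes, and the grey line is their median. TUBB4B is positive in all 4 libraries, with a mean of 0.48, and TUBA1A negative in all 4, with a mean of −0.27.

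The alpha difference between 13cRA and DMSO was present in both the highest and the lowest part of each library by mitotic score. Each library was ranked by score, and its highest and lowest parts, of equal size, were set side by side. The ranking was within each library, so the parts were not matched for score between libraries. The part of cell division in the alpha difference was not tested. In the highest part TUBA1B had 375 CPM in 83 cells of 13cRA, against 1095 CPM in 109 cells of DMSO. In the lowest part it had 188 CPM in 13cRA cells, against 870 CPM in DMSO cells. TUBA1A made up 84.5% of the alpha counts in the highest part of the 13cRA cells, against 65.9% in that of the DMSO cells, and 94.8% in the lowest part, against 76.4%. The median score itself was 2.29 in 13cRA cells, 2.81 in doxazosin cells, 2.697 in combination cells and 2.77 in DMSO cells. In the lowest part TUBA1A had 4325 CPM in 13cRA cells, 4297 in doxazosin cells, 5542 in combination cells and 3392 in DMSO cells. In the highest part it had 2905 CPM in 13cRA cells, 3284 in doxazosin cells, 3381 in combination cells and 2668 in DMSO cells, lower in every library.

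The genes most like TUBA1B across cells were GAPDH, HMGN2, ACTB, TUBG1 and UBE2T, with mean within-library correlations of 0.49, 0.45, 0.45, 0.39 and 0.36 over the 4 libraries. HMGN2 is a nucleosome-binding protein, ACTB is beta-actin and UBE2T a ubiquitin-conjugating enzyme of DNA repair. TUBA1B and GAPDH were also both lowest in the 13cRA library. TUBG1 was its nearest member, followed by TUBA1C at 0.30, and TUBB2A and TUBB2B correlated at 0.28. For TUBB3 no gene exceeded 0.12, and at its low counts such values are no finding.

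Other tubulin genes were few. Of 14 outside the members, 4 reached 5 CPM, and 2 of these were lower past 1.5-fold after 13cRA. TUBA4A, a further alpha-tubulin, had 51.2 CPM in 13cRA cells, 107 in doxazosin cells, 91.6 in combination cells and 98.5 in DMSO cells. TUBG2, the second gamma-tubulin, had 8.48 CPM in 13cRA cells, 22.3 in doxazosin cells, 16.4 in combination cells and 16.2 in DMSO cells. Both were lowest after 13cRA, as TUBA1B and TUBG1 were. TUBE1, epsilon-tubulin of the centriole, had 43.9 CPM in doxazosin cells and 22.5 CPM in DMSO cells, a log2 difference of 0.93.

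Across 6 lists of tubulin-related genes (129 genes, the other tubulins included), 97 were measured for 13cRA against DMSO, and 8 were higher and 15 lower past 1.5-fold (23.7%, beside 30.6% of all genes). For doxazosin 4 of 96 were higher and 5 lower (9.38%, beside 8.77%), and for the combination 5 of 95 were higher and 7 lower (12.6%, beside 17%). On the lower side, 15.5% of the listed genes passed for 13cRA, beside 13.5% of all genes, so the lists' shares lay near or below the background.

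Among 22 measured genes of tubulin folding and autoregulation, 1 was higher and 4 were lower after 13cRA, with a median log2 difference of −0.25, beside 0.00 for all genes. TCP1, a subunit of the chaperonin that folds tubulin, had 224 CPM in 13cRA cells, 379 in doxazosin cells, 354 in combination cells and 360 in DMSO cells. ARL2, a small GTPase that acts with the tubulin cofactors, had 63.2 CPM in 13cRA cells, against 111 CPM in DMSO cells. TTC5, which recognises newly made tubulin and triggers decay of its mRNA, had 38.7 CPM in 13cRA cells, 63.3 in doxazosin cells, 76.2 in combination cells and 61.4 in DMSO cells. These 3 passed 1.5-fold lower after 13cRA, and 0 of the 22 genes did so after doxazosin or the combination.

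Of 21 measured genes of the gamma-tubulin ring complex and nucleation, 2 were higher and 5 lower after 13cRA, and 1 was higher and 4 lower of 20 after the combination. MZT1, a small ring complex subunit, had 33.4 CPM in 13cRA cells, 94.2 in doxazosin cells, 83.9 in combination cells and 76.5 in DMSO cells, and so was lowest where TUBG1 was. NEDD1, which brings the complex to the spindle, had 20.1 CPM in 13cRA cells, against 38.6 CPM in DMSO cells. MZT2B, a subunit with the close copy MZT2A, went the other way, with 108 CPM in 13cRA cells, against 56.8 CPM in DMSO cells.

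Of 19 measured microtubule-binding proteins, 2 were higher and 2 lower after 13cRA. MAP6, which stabilises neuronal microtubules, had 71.9 CPM in 13cRA cells, 29.7 in doxazosin cells, 55.4 in combination cells and 29.8 in DMSO cells, and both libraries with 13cRA were high. MAPRE1, the plus-end protein EB1, had 162 CPM in 13cRA cells, against 285 CPM in DMSO cells. DCLK1, a doublecortin-like kinase, had 39.9 CPM in doxazosin cells and 36.0 in combination cells, against 22.8 CPM in DMSO cells.

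Of 12 measured severing and depolymerising proteins, 1 was higher and 1 lower after 13cRA, and 0 were higher and 3 lower after the combination. KIF18B and KIF2C, depolymerising kinesins of mitosis, had 19.0 and 77.3 CPM in combination cells, against 36.5 and 129 CPM in DMSO cells. SPAST, the severing enzyme spastin, had 44.1 CPM in 13cRA cells, against 25.6 CPM in DMSO cells. Of 19 measured tubulin-modifying enzymes, 2 were higher and 1 lower after 13cRA. SIRT2, a tubulin deacetylase, had 12.3 CPM in 13cRA cells, against 19.3 CPM in DMSO cells. LRRC49, part of the tubulin polyglutamylase complex, had 25.5 CPM in combination cells, against 14.5 CPM in DMSO cells, and TTLL4, a glutamylase, had 13.3 CPM in doxazosin cells, against 21.1 CPM in DMSO cells.

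The promoters of TUBA1A and TUBA1B are shown because these alpha genes share nearly all of their coding sequence. Of the pair, only TUBA1B was lower past 1.5-fold in 13cRA cells than in DMSO cells. The part of the promoters in that difference was not tested. Each run is the 250 bases before the RefSeq start in GRCh38.p14, 5′ to 3′ on the gene's minus strand, for TUBA1A chr12:49189081-49189330 and for TUBA1B chr12:49131396-49131645. Capitals mark the CCAAT box (CCAAT) and the GC box (GGGCGG) on either strand.
TUBA1A: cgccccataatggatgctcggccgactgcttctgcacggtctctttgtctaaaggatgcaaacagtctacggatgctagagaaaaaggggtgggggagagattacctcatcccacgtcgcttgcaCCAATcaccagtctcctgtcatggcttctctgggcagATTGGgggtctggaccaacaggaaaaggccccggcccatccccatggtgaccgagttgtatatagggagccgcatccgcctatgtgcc
TUBA1B: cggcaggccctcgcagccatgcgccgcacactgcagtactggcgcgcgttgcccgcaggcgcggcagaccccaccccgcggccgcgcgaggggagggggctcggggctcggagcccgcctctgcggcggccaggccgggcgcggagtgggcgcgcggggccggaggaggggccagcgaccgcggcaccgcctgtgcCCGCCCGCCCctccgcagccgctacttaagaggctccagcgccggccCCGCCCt
The TUBA1A window held 2 CCAAT boxes and 0 GC boxes, and its GC content was 56.4%. The TUBA1B window held 0 CCAAT boxes and 3 GC boxes, of which a pair overlap, and its GC content was 81.2%. Of 27305 RefSeq promoter windows of the same length, 33.0% held CCAAT and 42.3% held GGGCGG. Neither window held an E-box (CACGTG, in 6.49% of windows) or the nuclear receptor half-site AGGTCA (in 12.1%). A match of letters is a description of the window only.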

How the data were processed

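Single cells of 4 samples (1 per treatment, on the ICELL8 system) were profiled by full-length RNA sequencing. The authors deposited raw read counts per gene and cell for 1287 cells. Per the submitters' processing notes, Seurat 4.3.0, STAR 2.7.8a, fastp 0.23.3, bcl2fastq and featureCounts were used; GRCh38.p13 and GRCh37 are named without a role. Annotation, strandedness and handling of shared reads were not stated there. Cells with at least 500 genes and at most 25% mitochondrial counts were kept (1197). No doublet caller was run, since wells were picked by imaging, per the labels. Counts were summed per sample (22636509 to 72192743) and scaled to CPM, and log2 differences used a pseudocount of 1 CPM. A gene was measured at 5 CPM or more in either of the libraries compared. Intervals are exact Poisson or Clopper-Pearson (95%), and a count of 0 allows 3 counts. Shares of cells used cells thinned to 34000 counts, which left out 69, 4, 17 and 25 cells of 13cRA, doxazosin, the combination and DMSO. Per length means the longest principal transcript in GENCODE 29. All 10 members were named; each list named up to 3 genes with at least 20 CPM and the largest difference from DMSO, and the 5 genes most like TUBB3 and TUBA1B were taken. Well-detected genes for likeness had 20 CPM and a count in 50% of thinned cells in every library. The members and lists were chosen with earlier results of these data known. The calculation was tested on simulated data. Python 3.11.15, scipy 1.17.1, R 4.3.3, edgeR 4.0.16 (TMM factors) and DESeq2 1.42.0 (size factors) were used, the last 2 only for alternative scalings.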

Additional observations from a re-analysis of the deposited data

How the results depend on the processing

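No paired analysis was possible because each treatment has 1 sample. Under the alternatives run (other scalings, pseudocount, cell filters, depth windows and thinning), the 13cRA differences of TUBA1B, TUBA1C and TUBG1 from DMSO kept their sign, from −2.12 to −1.05, from −1.42 to −0.58 and from −1.49 to −0.51. TMM and DESeq2 factors moved the median of all genes for 13cRA to −0.34 and −0.30; members past 1.5-fold then numbered 6 under each, beside 41.0% and 38.9% of all genes, and all 10 members were lower. The cause was not tested. In cells matched for detected genes the count stayed at 3 but held TUBA1B, TUBB2A and TUBB3. TMM also gave 5 members for the combination against 13cRA, beside 36.5% of all genes, and 38 list genes for 13cRA, where 41.0% of all genes passed. The 2-fold rule gave 1 for the combination against 13cRA and 0 for the combination against DMSO. The share of all genes at 2-fold was not computed for these comparisons. That last comparison also gave 0 with DESeq2 factors, with the mean of per-cell CPM and with thinned cells, and 2 in cells matched for detected genes (chosen after seeing the data). Doxazosin against DMSO gave 1 member in cells of 34000 to 120000 counts and 1 in the matched cells, beside 19.9% and 30.5% of all genes. The combination against doxazosin gave 1 in the window of 34000 to 120000 counts, beside 31.2% of all genes. In the window of 34000 to 120000 counts the combination against DMSO also gave 1, but TUBB2A in place of TUBA1A, beside 27.9% of all genes. The departure from additivity was past 1.5-fold for 3 or 4 members in each setting, but not the same ones: TUBB6 was added with TMM or DESeq2 factors, TUBB3 in the 34000 to 120000 window (on the lower side), and in the matched cells TUBB2A and TUBB3 were past it and TUBG1 was not. The share of all genes past it, 30.6%, was computed only for CPM of all kept cells.

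The 13cRA-minus-DMSO share of TUBA1A, 20.3 points, was 19.9 with thinned cells, 19.0 without length, 18.2 with the union of exons as length (chosen after seeing the data) and 12.2 in the matched cells. For the beta genes it was −0.23 points, and −0.55 by per-cell CPM, −0.53 with at least 2000 genes, −0.72 in the 34000 to 120000 window, −0.78 with thinned cells, −3.48 in the matched cells and 1.45 with TUBB2A counted as general. The doxazosin beta difference turned to −0.19 in the matched cells. Without thinning, at unequal depth, the TUBB3 share was 40.2% (33.9 to 46.7%) in doxazosin cells and 27.8% (23.2 to 32.7%) in DMSO cells, the only member apart. At equal depths of 20000, 34000 and 60000 counts these TUBB3 intervals overlapped. For the combination, TUBB2A was the only member apart from DMSO at 34000 counts, and 60000 counts gave 0. The share of all genes by the same rule is not given here for doxazosin or the combination. Cells of 13cRA had fewer detected genes at equal depth, which limits what their shares show.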
